A study of Mus musculus with 9 samples.

Results

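The genes described here are the 7 genes of MHC class II antigen presentation H2-Aa, H2-Ab1, H2-Eb1, Cd74, H2-DMa, H2-DMb1 and Ciita, taken as a named list from the 55359 genes in the count table of a mouse kidney RNA-seq study. All 7 had a row, and all 7 were among the 17179 genes that passed the filter on low counts and were tested. The study made 9 libraries of polyadenylated RNA from whole kidney, with 3 groups of 3. In HFD-STZ+DH, mice put on a high-fat diet (49.0% of calories from fat) at 6 weeks of age were made hyperglycaemic with 2 intraperitoneal injections of streptozotocin, a beta-cell toxin, at 30 mg/kg on days 60 and 63, and then took dehydrozingerone, a curcumin-related compound of ginger, by mouth at 50 mg/kg for 2 weeks. In HFD-STZ+Veh, mice had the same diet and the same injections and were given vehicle. In NCD+Veh, mice of the same starting age had a normal calorie diet (11.32% of calories from fat) and vehicle. Groups were read from the sample titles, because the label for treatment gives the compound even for libraries titled as vehicle. The sources used here give neither strain nor sex. They do not say whether the libraries came from different animals, and p-values therefore describe the spread among these samples only. Every library carries its own batch date, and the dates run in group order, which means that batch and group cannot be told apart.

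MHC class II molecules sit on the surface of antigen-presenting cells and show peptides from engulfed protein to CD4+ T cells. Their alpha and beta chains assemble in the endoplasmic reticulum with the invariant chain Cd74, which blocks the groove and steers the complex to endosomes. There, cathepsins trim Cd74 to a short remnant, and H2-DM exchanges this remnant for peptide. Transcription of these genes depends on the coactivator Ciita, which docks on a complex of RFX, NF-Y and CREB proteins at the X and Y boxes of their promoters, and which interferon gamma induces. In kidney, resident macrophages and dendritic cells are the main class II-bearing cells, and endothelial and tubular cells can acquire class II when stimulated.

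Promoter windows from RefSeq (GRCm38.p6, 250 bases before to 50 bases after the start site) were matched by symbol for 4 of the 7 genes. The files themselves are on GRCm39, so these windows serve for sequence only. The 3 windows shown are those of the alpha chain H2-Aa, the beta chain H2-Eb1 and the peptide-exchange chain H2-DMb1, which carry matches to the elements through which class II genes are known to be controlled. Capitals mark the Y box core ATTGG on either strand, the X box and the cyclic AMP response element TGACGTCA. The last of these motifs was added after the sequences had been seen.
H2-Aa promoter, chr17:34287774-34288073, minus strand: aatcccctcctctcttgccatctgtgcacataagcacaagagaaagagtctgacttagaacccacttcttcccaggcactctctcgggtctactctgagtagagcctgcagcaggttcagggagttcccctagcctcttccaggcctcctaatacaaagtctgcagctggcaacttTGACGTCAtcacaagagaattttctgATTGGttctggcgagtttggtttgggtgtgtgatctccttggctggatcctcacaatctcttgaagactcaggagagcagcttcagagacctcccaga
H2-Eb1 promoter, chr17:34305617-34305916, plus strand: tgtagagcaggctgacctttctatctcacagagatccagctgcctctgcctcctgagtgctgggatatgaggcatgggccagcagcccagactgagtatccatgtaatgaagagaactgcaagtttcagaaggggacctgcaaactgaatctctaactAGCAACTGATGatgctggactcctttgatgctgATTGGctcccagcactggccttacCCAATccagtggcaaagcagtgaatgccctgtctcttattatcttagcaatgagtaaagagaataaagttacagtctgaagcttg
H2-DMb1 promoter, chr17:34152941-34153240, plus strand: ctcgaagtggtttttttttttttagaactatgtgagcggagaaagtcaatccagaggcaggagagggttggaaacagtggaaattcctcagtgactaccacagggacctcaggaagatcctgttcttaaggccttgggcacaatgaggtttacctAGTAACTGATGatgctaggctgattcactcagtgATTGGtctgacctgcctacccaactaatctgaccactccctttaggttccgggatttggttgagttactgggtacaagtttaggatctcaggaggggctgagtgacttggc

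Among 32851 windows of 27025 genes, searched on both strands, 37.4% held ATTGG, 4.1% held the longer CTGATTGG (which contains ATTGG), 0.968% held the X box and 1.79% held TGACGTCA. In the H2-Eb1 window the X box match AGCAACTGATG began 92 bases before the start site and CTGATTGG 62 bases before it. Only 10 of all windows, 0.0304%, held an X box and CTGATTGG together. In the H2-DMb1 window AGTAACTGATG began 95 bases and ATTGG 61 bases before the start site. H2-Aa had CTGATTGG 51 bases and TGACGTCA 74 bases before its start site, and no match to the X box pattern. That pattern is strict, so the lack of a match does not show that H2-Aa lacks an X box. For H2-DMa, 1 of its windows held none of the motifs and the other held ATTGG alone, 198 bases before the start site. These matches are letters in a window and do not show that a factor was bound.

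Transcripts of 3 class II chains were higher in kidneys of mice given dehydrozingerone (HFD-STZ+DH) than in HFD-STZ+Veh. The alpha chain H2-Aa was 2.47-fold higher, the beta chain H2-Ab1 2.11-fold and the beta chain H2-Eb1 3.08-fold, and these 3 genes passed the test. The invariant chain Cd74, both H2-DM chains and Ciita did not. Of all genes tested, 10% passed as higher in HFD-STZ+DH than in HFD-STZ+Veh. Between HFD-STZ+Veh and NCD+Veh none of the 7 passed, and only 0.0524% of all genes tested did. Levels are given as CPM, counts per M (mega) counts of library size after scaling by the trimmed mean of M values. Calls rest on edgeR's quasi-likelihood test at an adjusted p under 0.05 (Benjamini-Hochberg, over all 17179 genes). Groups are given as mean ± SD over n = 3 libraries.

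**Figure D1:**
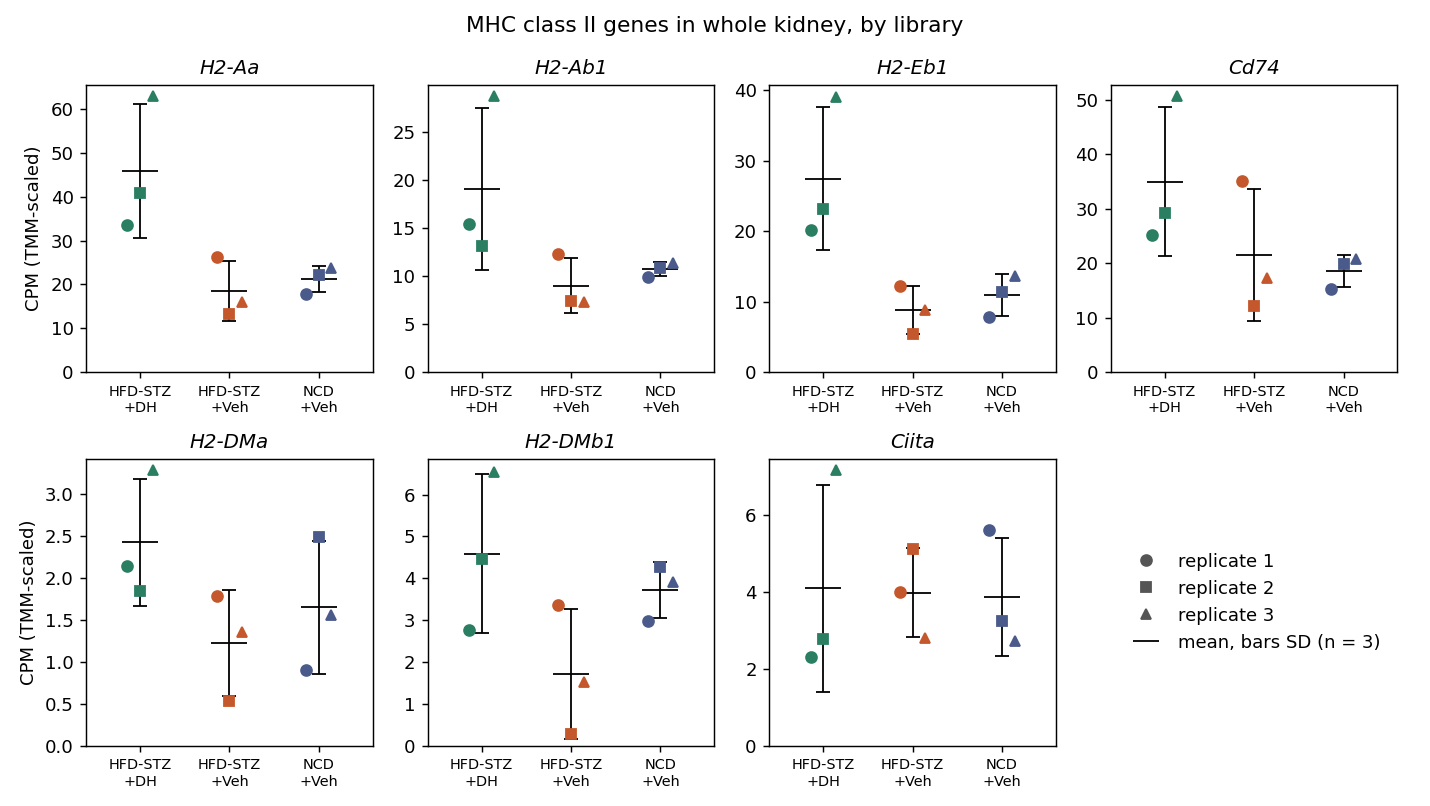
CPM of each class II gene in every library, with groups on the x axis, a point per library (its shape gives the replicate), the mean as a dash and the SD as bars. H2-Aa, H2-Ab1, H2-Eb1 and H2-DMa had every HFD-STZ+DH library above every HFD-STZ+Veh library, and HFD-STZ+DH replicate 3 was the highest of its group for all 7 genes.

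Total counts per library were 15.1 to 47.5 M, of which nuclear protein-coding genes had 2.13 M (HFD-STZ+Veh replicate 2) to 15.2 M (HFD-STZ+DH replicate 2) and mitochondrial genes 39.2% to 60.4%. The 7 genes together had 327 counts in HFD-STZ+Veh replicate 2 and up to 7487 in HFD-STZ+DH replicate 2. Y-linked transcripts were present in 1 HFD-STZ+DH library (replicate 3), 2 HFD-STZ+Veh libraries and 1 NCD+Veh library. With a term for them in the fit, the log2 fold changes of H2-Aa, H2-Ab1 and H2-Eb1 between HFD-STZ+DH and HFD-STZ+Veh were 1.29, 1.08 and 1.60, and all 3 were still called.

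H2-Aa (ENSMUSG00000036594, chromosome 17) encodes the alpha chain of the class II molecule I-A. It had 33.5, 41.0 and 63.0 CPM in HFD-STZ+DH, 26.2, 13.2 and 15.9 CPM in HFD-STZ+Veh and 17.9, 22.2 and 23.7 CPM in NCD+Veh. Every HFD-STZ+DH library lay above all 6 others. The log2 fold change was 1.30 (SE 0.30, adjusted p = 0.012) against HFD-STZ+Veh and 1.11 (SE 0.30, adjusted p = 0.031) against NCD+Veh, by edgeR's quasi-likelihood test. Between HFD-STZ+Veh and NCD+Veh it was -0.20 (SE 0.30, adjusted p = 0.89) with overlapping groups.

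H2-Ab1 (ENSMUSG00000073421, chromosome 17) is the partner beta chain of H2-Aa. Its levels were 15.4, 13.1 and 28.8 CPM in HFD-STZ+DH, 12.3, 7.42 and 7.30 CPM in HFD-STZ+Veh and 9.94, 10.8 and 11.4 CPM in NCD+Veh. The HFD-STZ+DH libraries again lay above the other 6, but the lowest of them exceeded the highest HFD-STZ+Veh library by little. The log2 fold change against HFD-STZ+Veh was 1.08 (SE 0.31, edgeR adjusted p = 0.027) and that against NCD+Veh was 0.83 (SE 0.30, adjusted p = 0.082), the second not called. The call against HFD-STZ+Veh was lost without HFD-STZ+DH replicate 1 (1.22, adjusted p = 0.053) or replicate 3 (0.66, adjusted p = 0.097), and without HFD-STZ+Veh replicate 2 (0.97, adjusted p = 0.066) or replicate 3 (0.94, adjusted p = 0.081). It was also lost with library size alone as the scaling (1.69, adjusted p = 0.065), which moves the median of all genes to 0.81, and with only the compared groups in the fit (1.06, adjusted p = 0.058).

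H2-Eb1 (ENSMUSG00000060586, chromosome 17) is the beta chain of the second class II molecule, I-E. It showed 20.2, 23.1 and 39.1 CPM in HFD-STZ+DH, 12.2, 5.39 and 8.79 CPM in HFD-STZ+Veh and 7.86, 11.3 and 13.7 CPM in NCD+Veh. No library of the other groups reached the lowest HFD-STZ+DH value. H2-Eb1 had a log2 fold change of 1.62 (SE 0.34, edgeR adjusted p = 0.0086) against HFD-STZ+Veh, the highest of the 7 genes, and 1.32 (SE 0.33, adjusted p = 0.025) against NCD+Veh. Against NCD+Veh, H2-Aa lost its call when any of the 6 libraries compared was left out (adjusted p = 0.057 to 0.12), and H2-Eb1 when any of them except NCD+Veh replicate 3 was left out (adjusted p = 0.06 to 0.11). With library size alone as the scaling, neither was called against NCD+Veh (log2 fold changes 1.09 and 1.26, adjusted p = 0.71 and 0.63).

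The partner of H2-Eb1 was not seen. H2-Ea-ps, the E alpha gene that carries a pseudogene name because some common laboratory strains do not transcribe it, had 0 counts in all 9 libraries, and a floor of 3 counts is 0.0463 to 0.405 CPM in single libraries. Among the other class II chains, the H2-DM inhibitor subunit H2-Ob had 0.794, 0.586 and 0.669 CPM in HFD-STZ+DH, 0.217, 0.135 and 0.401 CPM in HFD-STZ+Veh and 0.321, 0.457 and 0.460 CPM in NCD+Veh. The HFD-STZ+DH libraries lay above the others, and the log2 fold change against HFD-STZ+Veh was 1.27 (SE 0.49, adjusted p = 0.078), which did not pass. Its partner H2-Oa was too low to be tested, with 5, 9 and 7 counts in HFD-STZ+DH, 1, 0 and 1 in HFD-STZ+Veh and 0, 2 and 2 in NCD+Veh. H2-Eb2, a second E beta gene, had 1, 16 and 2 counts in HFD-STZ+DH, 0, 0 and 4 in HFD-STZ+Veh and 0, 1 and 0 in NCD+Veh and was not tested either.

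Cd74 (ENSMUSG00000024610, chromosome 18), the invariant chain, had 25.1, 29.2 and 50.7 CPM in HFD-STZ+DH, 35.2, 12.1 and 17.3 CPM in HFD-STZ+Veh and 15.2, 19.8 and 20.7 CPM in NCD+Veh. HFD-STZ+Veh replicate 1 exceeded both lower HFD-STZ+DH libraries, so those groups overlapped, while every HFD-STZ+DH library lay above NCD+Veh. The log2 fold change against HFD-STZ+Veh was 0.69 (95% interval -0.11 to 1.49, edgeR adjusted p = 0.19), and against NCD+Veh it was 0.91 (95% interval 0.12 to 1.71, adjusted p = 0.11). Without HFD-STZ+Veh replicate 1 the log2 fold change against HFD-STZ+Veh was 1.22 and passed (adjusted p = 0.031). The ratio of Cd74 to H2-Aa counts was 0.713 to 0.806 in HFD-STZ+DH, 0.918 to 1.34 in HFD-STZ+Veh and 0.853 to 0.891 in NCD+Veh. This ratio, chosen after its values were seen, was lower in all 3 HFD-STZ+DH libraries than in the other 6, and with 3 libraries a group an exact permutation test cannot go below 0.1.

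H2-DMa (ENSMUSG00000037649) and H2-DMb1 (ENSMUSG00000079547), both on chromosome 17, form the editor that loads peptide. H2-DMa had 2.15, 1.85 and 3.29 CPM in HFD-STZ+DH, 1.79, 0.539 and 1.36 CPM in HFD-STZ+Veh and 0.909, 2.49 and 1.56 CPM in NCD+Veh. Its lowest HFD-STZ+DH library lay just above the highest of HFD-STZ+Veh, where the counts were 33, 4 and 34. Its log2 fold change was 0.89 (95% interval -0.08 to 1.85, edgeR adjusted p = 0.17). H2-DMb1 had 2.76, 4.47 and 6.54 CPM in HFD-STZ+DH, 3.36, 0.270 and 1.52 CPM in HFD-STZ+Veh and 2.99, 4.28 and 3.91 CPM in NCD+Veh, so the groups overlapped. Its log2 fold change against HFD-STZ+Veh was 1.30 (SE 0.52, edgeR adjusted p = 0.091), and 2.08 without HFD-STZ+Veh replicate 1 (adjusted p = 0.026). DESeq2 called it at 1.33 (adjusted p = 0.046). HFD-STZ+Veh replicate 2 held only 2 H2-DMb1 counts. H2-DMb1 has a near-identical neighbour, H2-DMb2, and reads may be split between them, so both values are uncertain. H2-DMb2 had 0.353, 0.293 and 1.25 CPM in HFD-STZ+DH, 0.163, 0.135 and 0.120 CPM in HFD-STZ+Veh and 0.321, 0.125 and 0.307 CPM in NCD+Veh, with a log2 fold change against HFD-STZ+Veh of 2.13 (SE 0.76, adjusted p = 0.062).

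Ciita (ENSMUSG00000022504, chromosome 16), the class II coactivator, did not follow the chains. It had 2.32, 2.78 and 7.18 CPM in HFD-STZ+DH, 4.01, 5.13 and 2.81 CPM in HFD-STZ+Veh and 5.61, 3.24 and 2.73 CPM in NCD+Veh. A single library, HFD-STZ+DH replicate 3, was high. The other HFD-STZ+DH libraries lay below every HFD-STZ+Veh library, but replicate 2 only just (2.78 against 2.81 CPM in HFD-STZ+Veh replicate 3). The log2 fold change against HFD-STZ+Veh was 0.07 (95% interval -0.88 to 1.02, edgeR adjusted p = 0.93), and that against NCD+Veh was 0.09 (95% interval -0.84 to 1.02, adjusted p = 0.91). The first interval leaves room for a fall or a rise of nearly the size seen for H2-Ab1. Without HFD-STZ+DH replicate 3 the value against HFD-STZ+Veh was -0.60. With library size alone as the scaling it was 0.87 (adjusted p = 0.36).

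Of the 7 genes, 3 were called higher and none lower in HFD-STZ+DH against HFD-STZ+Veh, where 10% of the genes tested were called higher and 22.1% were called in either direction. HFD-STZ+DH and HFD-STZ+Veh did not overlap for 4 of the 7, as for 20.9% of the genes tested in that direction. Without HFD-STZ+Veh replicate 1, 5 were called higher, and without HFD-STZ+DH replicate 1 or 3 or HFD-STZ+Veh replicate 2 or 3, 2 were. The median log2 fold change of the 7 was 1.08, and that of all genes tested was 0.04. Against NCD+Veh, 2 of the 7 were called higher, where 6.31% of the genes tested were (13.7% in either direction), and 4 did not overlap, as for 22.4%. Without any 1 of the HFD-STZ+DH libraries none was called. Their median was 0.83 and that of all genes was 0.01. In HFD-STZ+Veh against NCD+Veh, edgeR called none of the 7, none had an unadjusted p under 0.05, and DESeq2 called none. In that comparison 0.0524% of the genes tested were called and 7.43% had an unadjusted p under 0.05, and the median of the 7 was -0.25. The comparisons share libraries and are not independent of each other. In whole tissue, more or fewer cells of a type and more or less RNA per cell cannot be told apart.

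**Figure D2:**
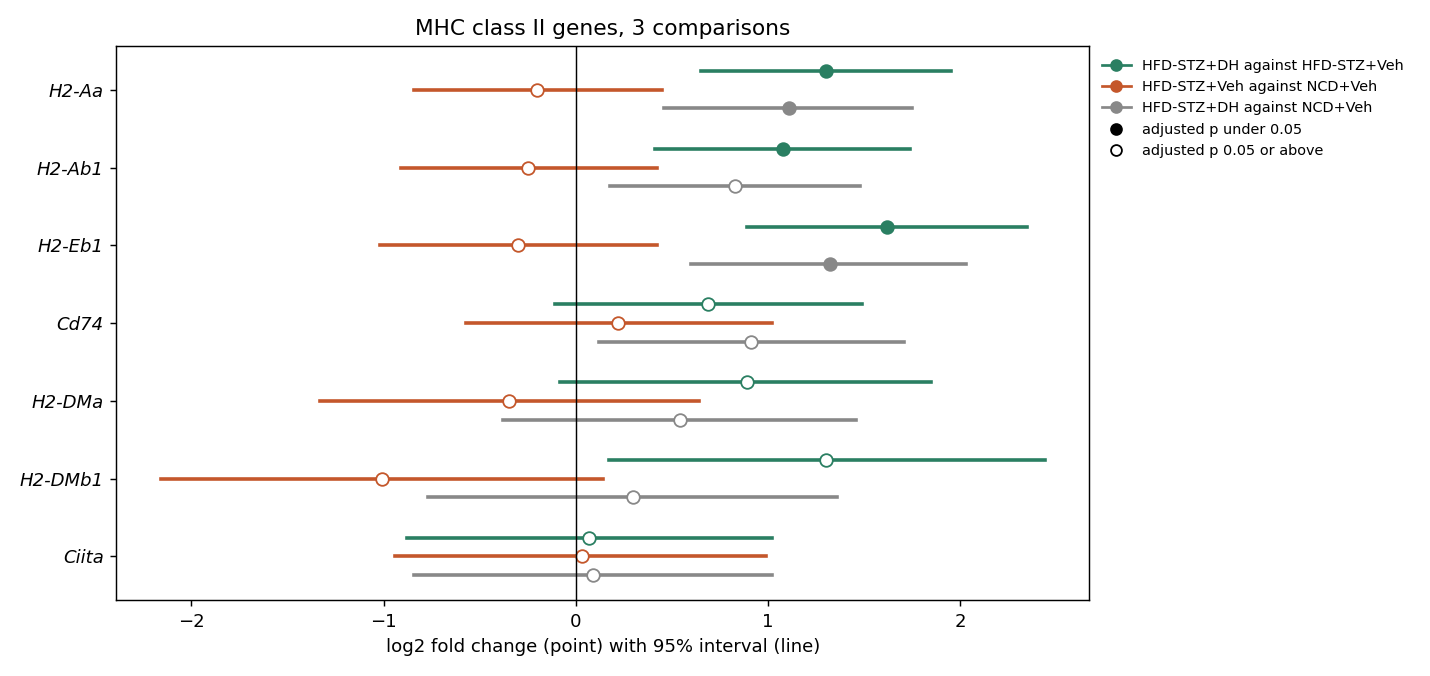
Log2 fold change (point) with its 95% interval (line) for each class II gene in the 3 comparisons, with filled points for an adjusted p under 0.05. H2-Aa, H2-Ab1 and H2-Eb1 were called in HFD-STZ+DH against HFD-STZ+Veh, with intervals from 0.65 to 1.95, 0.41 to 1.74 and 0.89 to 2.35. None of the intervals for HFD-STZ+Veh against NCD+Veh excluded 0.

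Per kilobase of exon, Cd74 was the most abundant of the 7 in every group, at 20.8 ± 8.21 CPM per kilobase in HFD-STZ+DH, 12.8 ± 7.20 in HFD-STZ+Veh and 11.1 ± 1.73 in NCD+Veh. The length joins all annotated exons of a gene (1679 bases for Cd74, 3798 for H2-Aa) and can exceed that of a single transcript. In CPM, H2-Aa stood above Cd74 in HFD-STZ+DH (45.8 against 35.0) and NCD+Veh (21.3 against 18.6), and below it in HFD-STZ+Veh (18.5 against 21.6). The order of genes therefore depends on the length used. In HFD-STZ+DH the order below Cd74 was H2-Eb1 (14.1), H2-Aa (12.1), H2-Ab1 (7.44), H2-DMb1 (2.73), H2-DMa (0.704) and Ciita (0.429). In NCD+Veh H2-Eb1 and H2-Aa were almost level, at 5.65 and 5.60 CPM per kilobase, followed by H2-Ab1 at 4.18, H2-DMb1 at 2.22, H2-DMa at 0.480 and Ciita at 0.405. In HFD-STZ+Veh H2-Aa (4.86) stood just above H2-Eb1 (4.52), then came H2-Ab1 (3.51) and H2-DMb1 (1.02), with Ciita (0.418) and H2-DMa (0.357) last. H2-Aa and H2-Eb1 differed by less than their SD in every group, as did Ciita and H2-DMa in HFD-STZ+Veh and NCD+Veh. The ratio of H2-Eb1 to H2-Ab1 counts was 1.31 to 1.76 in HFD-STZ+DH, 0.727 to 1.20 in HFD-STZ+Veh and 0.790 to 1.20 in NCD+Veh.

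The 6 genes other than Ciita varied together from library to library. Across the 9 libraries Pearson's r of log2 CPM was 0.70 to 0.99 over their 15 pairs, and 0.60 to 0.99 after group means were removed. H2-Aa and H2-Eb1 stood at 0.99 (0.95 without group means) and H2-Aa and Cd74 at 0.92 (0.99). Ciita had r of -0.16 to 0.29 with the others, and -0.14 to 0.56 after group means were removed. The points share libraries and depth, and HFD-STZ+DH replicate 3 and HFD-STZ+Veh replicate 2 lie at the opposite ends of the 9, at 1.67 and -1.27 on the mean standardized log2 CPM of the 7.

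**Figure D3:**
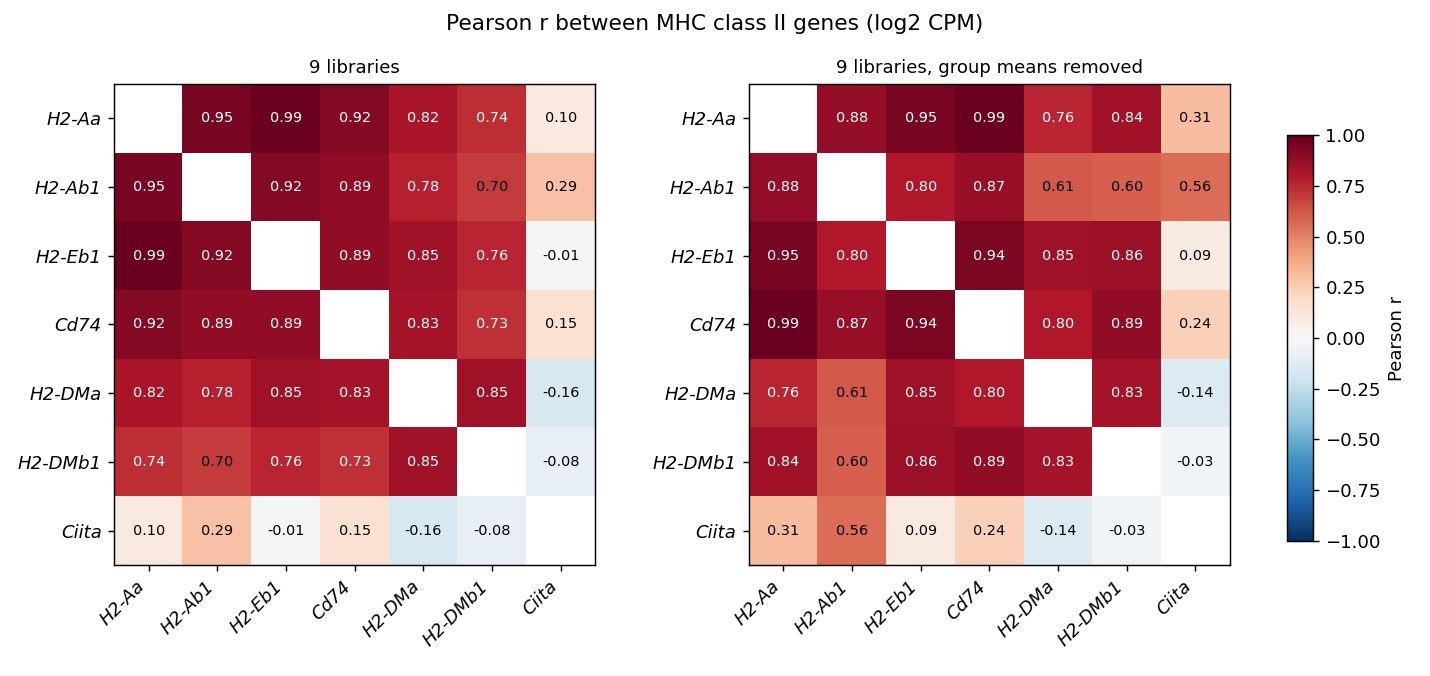
Pearson r of log2 CPM between the class II genes over 9 libraries (left) and after group means were removed (right), with colour from -1 to 1. The 15 pairs without Ciita were at 0.70 or above on the left and at 0.60 or above on the right, and the Ciita pairs at 0.29 or below on the left.

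The 10 other genes whose pattern was most like the mean of the 7 over the 9 libraries were Cmtm3 (r = 0.97), Rasl12 (0.96), Cd53 (0.95), Parp14 (0.93), Vcam1 (0.93), Anxa3, Cd52, C1qb, Hjurp and Pea15a (0.92 each). Cd53 is a leukocyte tetraspanin, Cd52 a leukocyte surface glycoprotein, C1qb a chain of complement C1q made by macrophages, and Vcam1 an adhesion molecule for leukocytes. Of the 10, only Cd53, Cd52 and C1qb belong to the leukocyte and macrophage marker lists given below. The others, with Cmtm3 and Rasl12 of highest r among them, do not. After group means were removed r was 0.83 (Pea15a) to 0.96 (Rasl12). Vcam1 stood at 29.8 CPM in HFD-STZ+DH replicate 3 and at 2.70 to 6.74 CPM in the other 8 libraries.

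Of 8 pan-leukocyte markers, 4 were called higher in HFD-STZ+DH than in HFD-STZ+Veh, where 10% of the genes tested were, none was called lower, and the median log2 fold change was 0.96. They were Ptprc, the CD45 phosphatase (1.29, SE 0.33, edgeR adjusted p = 0.018), Cd53 (1.61, SE 0.41, adjusted p = 0.017), the actin bundler Lcp1 (0.90, SE 0.23, adjusted p = 0.019) and Arhgdib, a signalling regulator of blood cells (1.03, SE 0.34, adjusted p = 0.046). With library size alone as the scaling 2 of the 8 were called, without replicate 1 of HFD-STZ+DH 2, and without replicate 2 or 3 of HFD-STZ+DH or replicate 3 of HFD-STZ+Veh 1. The markers did not all follow the mean of the 7 class II genes: with group means removed r was 0.91 for Cd53 and 0.77 for Ptprc, but 0.40 for Lcp1, 0.18 for Arhgdib and -0.03 for Cytip. All 8 were detected, and their summed level was 48.8 to 58.6 CPM in HFD-STZ+DH, 20.0 to 36.9 CPM in HFD-STZ+Veh and 25.4 to 32.1 CPM in NCD+Veh. The summed level of H2-Aa, H2-Ab1, H2-Eb1 and Cd74 was 94.2 to 181.6 CPM in HFD-STZ+DH, 38.2 to 85.9 CPM in HFD-STZ+Veh and 50.9 to 69.5 CPM in NCD+Veh.

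Set against the pan-leukocyte counts of the same library, the counts of these 4 class II genes stood at 1.93, 2.08 and 3.10 in HFD-STZ+DH, 2.33, 1.91 and 1.93 in HFD-STZ+Veh and 2.00, 2.00 and 2.29 in NCD+Veh. The groups overlapped, and HFD-STZ+DH replicate 3 alone was above the rest. The mean ratio was 2.37 ± 0.637 in HFD-STZ+DH and 2.06 ± 0.237 in HFD-STZ+Veh (two-sided exact permutation test, p = 0.6, n = 3 each, where 0.1 is the smallest p possible). Without HFD-STZ+DH replicate 3 the difference in means between HFD-STZ+DH and HFD-STZ+Veh was -0.0549, against 0.310 with it. This ratio was chosen after the data were seen, and the part of leukocyte content in the class II result was not tested.

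**Figure D4:**
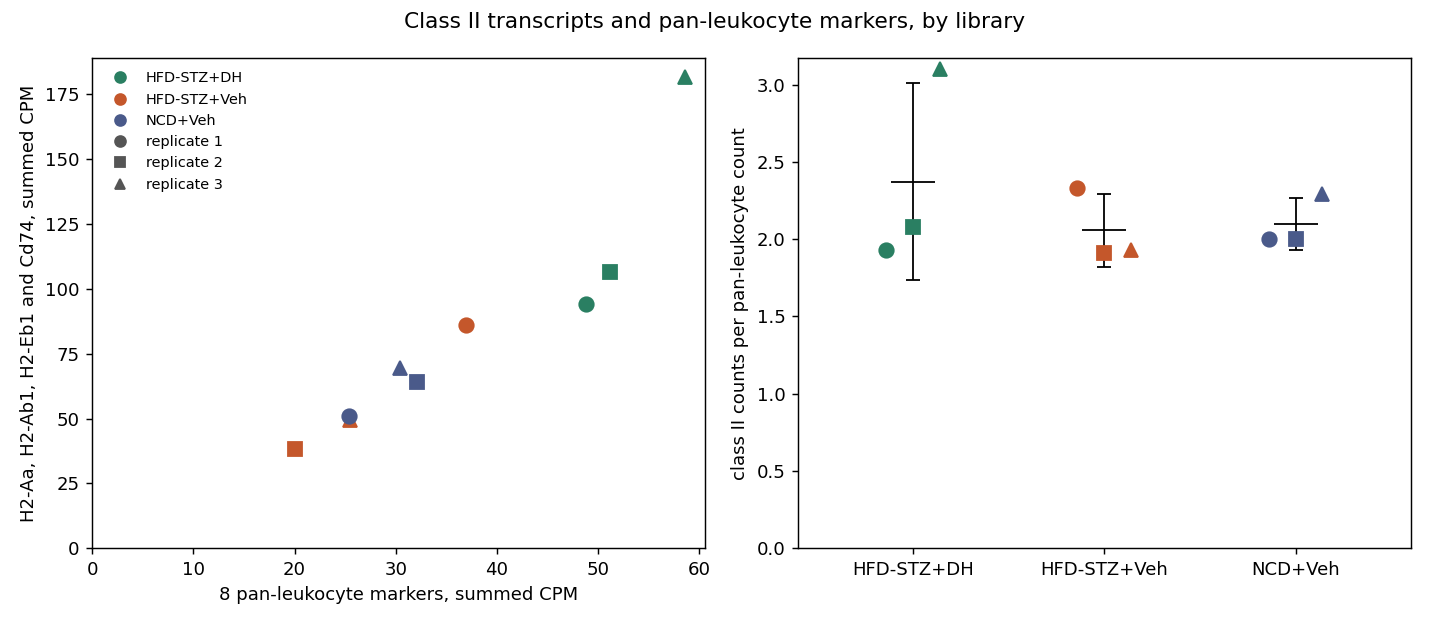
Left, summed CPM of H2-Aa, H2-Ab1, H2-Eb1 and Cd74 against summed CPM of 8 pan-leukocyte markers, a point per library. Right, class II counts per pan-leukocyte count by group, with the mean as a dash and the SD as bars: all libraries lay between 1.91 and 2.33 except HFD-STZ+DH replicate 3, at 3.10.

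Of 12 macrophage markers, 5 were called higher and 1 lower in HFD-STZ+DH against HFD-STZ+Veh, with a median of 0.96. Of all genes tested, 10% were called higher and 22.1% in either direction. The complement chains C1qb (1.60, SE 0.34, edgeR adjusted p = 0.0096) and C1qc (1.28, SE 0.30, adjusted p = 0.014) and the pore-forming Mpeg1 (1.28, SE 0.27, adjusted p = 0.0088) were among the 5, as was C1qa (1.86, SE 0.48, adjusted p = 0.019), which is named here outside the naming rule. Csf1r, the receptor on which macrophages depend, went the other way, at 10.7, 11.6 and 7.88 CPM in HFD-STZ+DH, 33.0, 14.4 and 16.7 CPM in HFD-STZ+Veh and 24.7, 38.7 and 30.6 CPM in NCD+Veh (-1.09 against HFD-STZ+Veh, SE 0.31, adjusted p = 0.027). With library size alone as the scaling 3 of the 12 were called higher and none lower, and Csf1r stood at -0.55 (adjusted p = 0.52). Without any 1 of the HFD-STZ+DH libraries or replicate 3 of HFD-STZ+Veh 3 were called higher, and Csf1r lost its call without any 1 of the HFD-STZ+DH libraries or replicate 1 of HFD-STZ+Veh (log2 fold changes -1.2 to -0.65). With Csf1r left out of the macrophage sum, class II counts per macrophage-marker count were 2.89 ± 0.250 in HFD-STZ+DH, 2.87 ± 0.650 in HFD-STZ+Veh and 2.59 ± 0.241 in NCD+Veh. With Csf1r kept in, they were 2.03 to 2.76 in HFD-STZ+DH, 1.21 to 1.50 in HFD-STZ+Veh and 1.04 to 1.22 in NCD+Veh, so that 1 marker decides whether the groups overlap.

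Of 10 dendritic cell markers 7 were tested and 1 was called higher in HFD-STZ+DH than in HFD-STZ+Veh, the lectin Cd209a (2.33, SE 0.65, edgeR adjusted p = 0.026), with 0.588, 0.386 and 1.48 CPM in HFD-STZ+DH, 0.163, 0.135 and 0.161 CPM in HFD-STZ+Veh and 0.214, 0.249 and 0.307 CPM in NCD+Veh. The median log2 fold change of the 7 was 0.44, and 10% of all genes tested were called higher in that comparison. The call of Cd209a was lost with limma-voom (1.78, adjusted p = 0.084) and without replicate 1 or 3 of HFD-STZ+DH or of HFD-STZ+Veh (adjusted p = 0.055, 0.086, 0.068 and 0.07). Xcr1, the chemokine receptor of cross-presenting dendritic cells, had a log2 fold change of 1.10 (adjusted p = 0.08) against HFD-STZ+Veh and 1.57 (adjusted p = 0.03) against NCD+Veh. Other markers of the list pointed down: Irf8, a transcription factor of dendritic cell development, had 4.12, 5.06 and 6.72 CPM in HFD-STZ+DH, 7.16, 7.42 and 7.30 CPM in HFD-STZ+Veh and 5.88, 5.19 and 5.14 CPM in NCD+Veh. All 3 HFD-STZ+DH libraries lay below HFD-STZ+Veh, with a log2 fold change of -0.46 (SE 0.22, edgeR adjusted p = 0.15). Batf3, a transcription factor of cross-presenting dendritic cells, stood at -0.63 (SE 0.56, adjusted p = 0.44). Class II counts per dendritic-marker count were 6.73 to 9.20 in HFD-STZ+DH, 2.50 to 6.37 in HFD-STZ+Veh and 4.64 to 6.22 in NCD+Veh. Irf8 alone made up a mean 5.30 of the summed 15.6 CPM of these markers in HFD-STZ+DH, 7.29 of 13.8 in HFD-STZ+Veh and 5.40 of 11.7 in NCD+Veh. The ratio therefore leans on that marker, and it was not taken without Irf8. In HFD-STZ+DH against HFD-STZ+Veh edgeR called none of the 5 tested B and plasma cell markers, 8 T cell markers and 8 endothelial markers, of which 1 in each list had an unadjusted p under 0.05. DESeq2, read for the 4 named genes of each of these lists, called none. With a library left out, edgeR called 0 to 2 B and plasma cell markers higher, 0 to 1 T cell markers and 0 to 1 endothelial markers. The glucose transporter Slc5a2 (0.98, SE 0.25, edgeR adjusted p = 0.019) was the 1 called of 8 proximal tubule markers, and was not called with library size alone (1.59, adjusted p = 0.066) or without replicate 1 or 2 of HFD-STZ+DH (adjusted p = 0.054 and 0.064).

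Adipocyte transcripts also differed between libraries. Of 7 tested white adipocyte markers 1 was called higher in HFD-STZ+DH against HFD-STZ+Veh, where 10% of the genes tested were. It was the lipid droplet gene Cidec (4.57, SE 1.48, edgeR adjusted p = 0.047), and the median log2 fold change of the 7 was 2.74. The number of these markers called higher was 4 with library size alone, 2 with DESeq2 and 8 of 8 with no filter on low counts, and 0 without HFD-STZ+DH replicate 1 or any 1 of the HFD-STZ+Veh libraries. The summed level of 8 white adipocyte markers was 25.6 to 88.8 CPM in HFD-STZ+DH, 10.7 to 22.8 CPM in HFD-STZ+Veh and 15.8 to 82.3 CPM in NCD+Veh. Fabp4 alone made up a mean 40.2 of the summed 50.3 CPM in HFD-STZ+DH, 15.4 of 16.3 in HFD-STZ+Veh and 26.8 of 40.2 in NCD+Veh. The sum therefore leans on that marker. Adipoq was at 0 in HFD-STZ+DH replicate 2 and HFD-STZ+Veh replicate 2, and the part of fat in the class II result was not tested. All 8 proximal tubule markers were present, at a summed 836.1 to 1404.0 CPM over the 9 libraries.

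Some of the genes listed for class II processing were called higher as well. Of 10 genes of class II processing and turnover, 3 were called higher in HFD-STZ+DH than in HFD-STZ+Veh, where 10% of the genes tested were. None was called lower, and the median was 0.61. Cathepsin S (Ctss), which trims Cd74 in dendritic cells and B cells, had 8.17, 9.33 and 15.3 CPM in HFD-STZ+DH, 5.04, 3.78 and 3.25 CPM in HFD-STZ+Veh and 3.42, 3.82 and 5.09 CPM in NCD+Veh. Every HFD-STZ+DH library lay above the other 6, which overlapped between HFD-STZ+Veh and NCD+Veh, and the log2 fold change against HFD-STZ+Veh was 1.44 (SE 0.29, edgeR adjusted p = 0.0081). Cathepsin L (Ctsl), which does so in thymic epithelium, had 111.3, 123.1 and 129.9 CPM in HFD-STZ+DH, 26.4, 22.9 and 36.4 CPM in HFD-STZ+Veh and 43.4, 50.7 and 56.4 CPM in NCD+Veh (2.08 against HFD-STZ+Veh, SE 0.24, adjusted p = 0.0031). The third called gene was the asparagine endopeptidase Lgmn (0.97, SE 0.22, adjusted p = 0.012). Ctsl and Lgmn are also known from tubular epithelium. With group means removed, r with the mean of the 7 class II genes was 0.82 for Ctss, but 0.31 for Ctsl and 0.22 for Lgmn. Unlike the class II chains, Ctsl was lower in HFD-STZ+Veh than in NCD+Veh without overlap, though not called (-0.81, SE 0.23, edgeR adjusted p = 0.39). Against NCD+Veh 4 of the 10 were called higher, where 6.31% of the genes tested were. Cd9, a tetraspanin that associates with class II at the cell surface, was among them (1.06, SE 0.24, edgeR adjusted p = 0.02).

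Among the 7 proteins of the class II transcription complex, 1 was called higher in HFD-STZ+DH against HFD-STZ+Veh, where 10% of the genes tested were, and the median log2 fold change was -0.02. It was Rfx5, the RFX subunit that contacts the X box, at 7.05, 3.76 and 6.80 CPM in HFD-STZ+DH, 2.55, 3.10 and 3.53 CPM in HFD-STZ+Veh and 4.06, 3.57 and 3.37 CPM in NCD+Veh. Rfx5 differed by 0.93 on the log2 scale (SE 0.28, edgeR adjusted p = 0.035), and replicate 2 of HFD-STZ+DH lay just above the highest HFD-STZ+Veh library. The call was lost with limma-voom (0.85, adjusted p = 0.069), with library size alone (1.75, adjusted p = 0.08), with only the compared groups in the fit (0.92, adjusted p = 0.067), and without replicate 1 or 3 of HFD-STZ+DH, replicate 1 or 2 of HFD-STZ+Veh or replicate 2 of NCD+Veh. Nfya, the NF-Y subunit that reads the Y box, had a log2 fold change of 0.22 (adjusted p = 0.53) against HFD-STZ+Veh and 0.87 (SE 0.24, adjusted p = 0.032) against NCD+Veh. Creb1 stood at -0.34 (adjusted p = 0.2) and Nfyb at 0.39 (adjusted p = 0.2) against HFD-STZ+Veh.

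Interferon gamma itself was near the limit of detection, with 2, 3 and 6 counts in HFD-STZ+DH, 0, 0 and 1 in HFD-STZ+Veh and 0, 1 and 2 in NCD+Veh, and was not tested. Of the 7 tested genes of its signalling, 3 were called higher in HFD-STZ+DH than in HFD-STZ+Veh, where 10% of the genes tested were. The receptor chain Ifngr1 had 8.55, 10.2 and 11.1 CPM in HFD-STZ+DH, 4.34, 3.91 and 5.06 CPM in HFD-STZ+Veh and 4.76, 3.20 and 5.04 CPM in NCD+Veh (1.15 against HFD-STZ+Veh, SE 0.24, edgeR adjusted p = 0.0082). The second chain Ifngr2 (1.22, SE 0.27, adjusted p = 0.011) and the kinase Jak2 (1.22, SE 0.27, adjusted p = 0.01) were the others. With library size alone as the scaling 1 of the 3, Jak2, was called, and without HFD-STZ+DH replicate 1 Jak2 was not (1.05, adjusted p = 0.052). Ptpn2, a phosphatase that dampens the pathway, had 0.12 (adjusted p = 0.67).

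Class I presentation, which shows cytosolic peptides to CD8+ T cells, had 1 of 14 genes called higher in HFD-STZ+DH than in HFD-STZ+Veh, where 10% of the genes tested were, and a median log2 fold change of 0.16. It was Erap1, the aminopeptidase that trims class I peptides (0.65, SE 0.19, edgeR adjusted p = 0.029). It was not called with library size alone (1.46, adjusted p = 0.11), with only the compared groups in the fit (0.63, adjusted p = 0.061), or without any 1 of the HFD-STZ+DH libraries or replicate 1 or 3 of HFD-STZ+Veh. With no filter on low counts the chaperone Canx was called lower (-0.87, adjusted p = 0.048). B2m, the light chain of class I, had 236.8, 226.0 and 292.8 CPM in HFD-STZ+DH, 161.8, 381.0 and 140.2 CPM in HFD-STZ+Veh and 129.4, 140.1 and 182.0 CPM in NCD+Veh, and a log2 fold change of 0.15 (adjusted p = 0.8) against HFD-STZ+Veh. Of 4 tested costimulatory genes edgeR and DESeq2 called none, and Cd40, the receptor through which T cells license antigen-presenting cells, came nearest (1.64, SE 0.57, adjusted p = 0.057) and was the 1 with an unadjusted p under 0.05. In HFD-STZ+Veh against NCD+Veh edgeR called none of the 121 tested genes of all lists, the class II genes included, and 0.0524% of all genes tested. Of the 121, 11 had an unadjusted p under 0.05, as had 7.43% of all genes tested. DESeq2 called 5 of the 63 that were looked up and had a value, and 125 of all 17179 genes. Apart from the 7, the genes looked up were nearly all picked for low p, so the 5 do not give a share of the lists.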

How the data were processed

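Messenger RNA of whole kidney was measured in 9 libraries of 3 groups (HFD-STZ+DH, HFD-STZ+Veh and NCD+Veh), made with a stranded kit from 500 ng of RNA, per the labels' protocols. The authors deposited raw counts per Ensembl gene as whole numbers, with 0 other columns of per-sample values. The submitters' processing notes list FastQC, Trim Galore and STAR, and the build GRCm39 (mm39). The sources used here name no counting program and no setting for strand or multiple mapping, and reads of near-identical or overlapping genes may be split.

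The test was that of edgeR 4.0.16 in R 4.3.3: filterByExpr, TMM scaling, 1 robust quasi-likelihood fit of all 9 libraries with group as the only term, two-sided F-tests, and Benjamini-Hochberg adjustment over 17179 genes. SE and 95% intervals came from the F statistic. Log2 CPM for correlations used a prior count of 2. Exon lengths and symbols came from an older build, matched on the Ensembl identifier (symbols for 99.5% of the genes tested). The floor of 3 counts covers counting error only. The fit was tested on simulated counts with less spread than these data (common dispersion 0.0893) and no differences in composition between libraries. That test therefore does not cover the conditions of these data. Alternatives used DESeq2 1.42.0, limma 3.58.1 (voom), other scalings, filters and terms, and each library left out. Figures were drawn with matplotlib 3.10.9.

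The 7 genes and the 15 other lists, written from textbook knowledge, were chosen with earlier results of these data known. All 7 are named, with all detected other class II chains, up to 4 genes of lowest p per other list over the 3 comparisons, and the 10 genes of highest r to the mean of the 7 whose mean log2 CPM is 1 or more. Ifng, C1qa, Irf8, Batf3 and Cytip are named outside this rule, after their values were seen, and some genes are not reported here. The count ratios were chosen after the data were seen.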

Additional observations from a re-analysis of the deposited data

How the results depend on the processing

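Of 17 alternatives, 9 of which left out 1 library, H2-Aa and H2-Eb1 were called higher in HFD-STZ+DH against HFD-STZ+Veh in all 17 (log2 fold changes 1.01 to 1.88 and 1.29 to 2.20; highest adjusted p = 0.039 and 0.03) and H2-Ab1 in 10. Against NCD+Veh, H2-Aa was called in 9, H2-Eb1 in 10 and H2-Ab1 in 1. No called value of the 7 changed sign. Among their values not called, Cd74 and H2-DMa changed sign in 2 and 1 of the 17 in HFD-STZ+Veh against NCD+Veh, H2-DMb1 in 1 in HFD-STZ+DH against NCD+Veh, and Ciita changed sign or rounded to 0 in 3, 6 and 4 of the 17 in HFD-STZ+DH against HFD-STZ+Veh, HFD-STZ+Veh against NCD+Veh and HFD-STZ+DH against NCD+Veh. The causes were not tested. 

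Class II genes called higher numbered 3 in HFD-STZ+DH against HFD-STZ+Veh (2 to 5 with a library left out; 5 with no filter on low counts, 4 with DESeq2) and 2 in HFD-STZ+DH against NCD+Veh (0 to 3 with a library left out; 4 with no filter, 0 with library size alone). In HFD-STZ+Veh against NCD+Veh the number was 0 under all 17. The labels give no pairing of the samples by replicate number. In their deviations from group means, same-numbered libraries correlated at -0.18 to 0.22 (HFD-STZ+DH against HFD-STZ+Veh), -0.41 to 0.16 (HFD-STZ+DH against NCD+Veh) and -0.40 to -0.13 (HFD-STZ+Veh against NCD+Veh). Deviations from a mean of 3 libraries are tied to each other, so these values cannot exclude a pairing. With the replicate block, 2 and 0 class II genes were called higher in HFD-STZ+DH against HFD-STZ+Veh and against NCD+Veh, and 2159, 772 and 2 genes were called in all (the last for HFD-STZ+Veh against NCD+Veh).

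Over all genes, 3796 were called in HFD-STZ+DH against HFD-STZ+Veh (45.5% higher), 2352 in HFD-STZ+DH against NCD+Veh and 9 in HFD-STZ+Veh against NCD+Veh. With library size alone these were 888 (93.7% higher), 36 and 29. With no filter, HFD-STZ+Veh against NCD+Veh had 425, with DESeq2 125 and with the Y-linked term 42; with only the compared groups it had 3. HFD-STZ+DH against NCD+Veh had 3981 with only the compared groups and 3617 with the Y-linked term. Leaving out a library gave 1149 to 4086, 112 to 3706 and 2 to 28. HFD-STZ+Veh replicate 2, with 2.13 M nuclear coding counts, limits what can be said of H2-DMa and H2-DMb1, at 4 and 2 counts there.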
